A study of Mus musculus with 8 samples.

Results

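The L1 family of cell adhesion molecules comprises L1cam, Chl1, Nrcam and Nfasc, and its probe sets were taken as every probe set on the array whose annotation named exactly 1 of these 4 genes. They were 4 of the 12921 genes named in this way, with 164 of 391597 probe sets: 31 for L1cam, 41 for Chl1, 52 for Nrcam and 40 for Nfasc. Signal was read in the cortex of 4 Nova2 KO and 4 wild type CD1 mice on postnatal day 10, with 1 exon array for each mouse. An exon array carries many short probe sets along a gene, so that the signal of a single stretch of transcript can be set against the rest of its gene. The labels do not give the allele, the deleted part of Nova2, the sex of the mice or the cells in which the gene was lost. The tissue was whole cortex, and in such bulk samples fewer cells of a type and less RNA per cell cannot be told apart.

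L1 family members are transmembrane proteins of axons, with immunoglobulin domains and fibronectin type III repeats outside the cell and a short tail inside that binds ankyrins. They guide axons and, in the case of Nrcam and Nfasc, help to assemble the axon initial segment and the nodes of Ranvier. Their transcripts carry alternative exons. Nova2 binds RNA in neurons and steers the choice of alternative exons, and Chl1 and Nrcam had been named among the targets of Nova proteins in earlier work, so that a change in them here is not independent evidence. The comparison asks whether the level of these transcripts, or the use of single exons in them, differs when Nova2 is absent.

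The labels were first checked on Nova2 itself. Its probe set 5294108 read 6.28, 7.17, 7.26 and 6.73 log2 on Nova2 KO arrays 1 to 4, against 8.87, 8.65, 8.53 and 8.66 log2 on wild type arrays 1 to 4, a difference of -1.82 log2 (SE 0.22, limma adjusted p = 0.0786 over all probe sets). This was the Nova2 probe set with the lowest p. It passed in 4 of 16 other settings. These were the filter at the 50th percentile (limma adjusted p = 0.0221), median centring (0.0366), quantile normalization (0.0309) and the array median as a covariate (0.0264). Without single arrays the limma adjusted p was 0.172 to 0.396. In another 2 of the gene's probe sets every Nova2 KO array lay above every wild type array, 4414499 at 0.70 log2 (SE 0.13, limma adjusted p = 0.321) and 4355944 at 0.40 log2 (SE 0.14, limma adjusted p = 0.70), and in the other 13 the groups overlapped. The Nova2 gene value, the median over its 16 kept probe sets, differed by -0.016 log2 (SE 0.11). That of its paralog Nova1 was 0.38 log2 higher in Nova2 KO (SE 0.11, limma adjusted p = 0.251). Its groups were apart, as for 5.06% of all genes with Nova2 KO above. Probe sets outside the deleted part, which is unknown here, check nothing, so the labels rest on no firm check. Array medians ran from 7.02 to 7.37 log2, and the number of arrays limits the precision. Wild type 4 and Nova2 KO 4 had the lowest medians and the highest shares of values at the floor of the scale (3.34% and 2.20%), so results are also given without both where that changes them.

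The tissue was checked on marker genes. The summed level of 5 measured neuron markers was 14.28 to 14.48 log2 in Nova2 KO and 14.27 to 14.38 log2 in wild type, with a median difference of 0.077 log2. Markers of excitatory cortical neurons summed to 12.39 to 12.66 log2 in Nova2 KO and 12.48 to 12.73 log2 in wild type (median difference 0.20 log2). Slc17a7, the brightest of them, differed by -0.19 log2, and Neurod6, Tbr1 and Neurod2 by 0.29, 0.23 and 0.18 log2. Median differences were 0.0091 log2 for inhibitory neurons, -0.10 log2 for astrocytes, -0.18 log2 for microglia, -0.15 log2 for meninges, 0.0040 log2 for choroid plexus and -0.075 log2 for striatum. For these 6 lists the summed levels of the groups overlapped. They did not for endothelium (9.99 to 10.23 log2 in Nova2 KO, 10.25 to 10.32 log2 in wild type) or hippocampus (9.51 to 9.87 log2 in Nova2 KO, 9.92 to 10.23 log2 in wild type), whose medians were -0.14 and -0.24 log2. The hippocampus list rested on 2 of 4 listed markers, Wfs1 (-0.45 log2, groups apart) and Zbtb20 (-0.037 log2, groups overlapping). Striatum also had 2 of 4 measured, Drd2 (-0.27 log2) and Ppp1r1b (0.12 log2). So did choroid plexus, with Ttr (0.078 log2) and Kl (-0.070 log2). Among meninges markers the groups were apart for Dcn (0.13 log2) and Col1a2 (-0.41 log2) and overlapped for Col1a1 (-0.15 log2). The part of these lists in the values below was not tested.

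At the level of the whole gene, none of the 4 members passed the threshold, an adjusted p under 0.05 in limma with Benjamini-Hochberg adjustment over all genes. Over the array 25 of 11992 genes passed (0.208%), and 1389 had an unadjusted p under 0.05, as did 1 member, Chl1. A gene value is the median log2 signal over the kept probe sets of a gene. Probe sets were kept where their mean over the 8 arrays exceeded 5.86 log2, the 25th percentile of all probe sets. This kept 160 of the 164, leaving out 4 dim probe sets of Chl1 (means of 4.67 to 5.64 log2). Of the 160, Nfasc probe set 5585150 alone had its wild type mean below the filter.

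Chl1, the close homolog of L1, was the member with the largest gene value difference. Its gene value was 10.42, 10.41, 10.58 and 10.48 log2 on the Nova2 KO arrays, against 10.19, 10.17, 10.32 and 10.22 log2 on the wild type arrays. All 4 Nova2 KO values lay above all 4 wild type values, a pattern met by 5.06% of all genes. The means were 10.47 ± 0.079 log2 in Nova2 KO and 10.22 ± 0.065 log2 in wild type (SD, n = 4 each), and the difference of 0.25 log2 (SE 0.092) had a limma adjusted p of 0.32. The median difference over all genes was 0.022 log2.

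L1cam, the founding member of the family, averaged 10.61 ± 0.16 log2 in Nova2 KO and 10.64 ± 0.12 log2 in wild type (SD, n = 4 each). The array values were 10.68, 10.67, 10.73 and 10.37 log2 in Nova2 KO, against 10.55, 10.65, 10.80 and 10.55 log2 in wild type. The groups overlapped, and the difference was -0.024 log2 (SE 0.11, limma adjusted p = 0.963).

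Nrcam had gene values of 10.50, 10.38, 10.59 and 10.34 log2 in Nova2 KO, against 10.44, 10.49, 10.41 and 10.37 log2 in wild type. The difference of 0.024 log2 (SE 0.095, limma adjusted p = 0.956) was small beside the spread of the arrays. Nfasc, which gives neuronal forms at the initial segment and a glial form in oligodendrocytes, read 9.94, 9.79, 9.87 and 9.40 log2 in Nova2 KO, against 9.80, 9.85, 10.05 and 9.79 log2 in wild type. Its difference was -0.12 log2 (SE 0.13, limma adjusted p = 0.754), with Nova2 KO 4 the lowest of the 8 arrays.

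**Figure D1:**
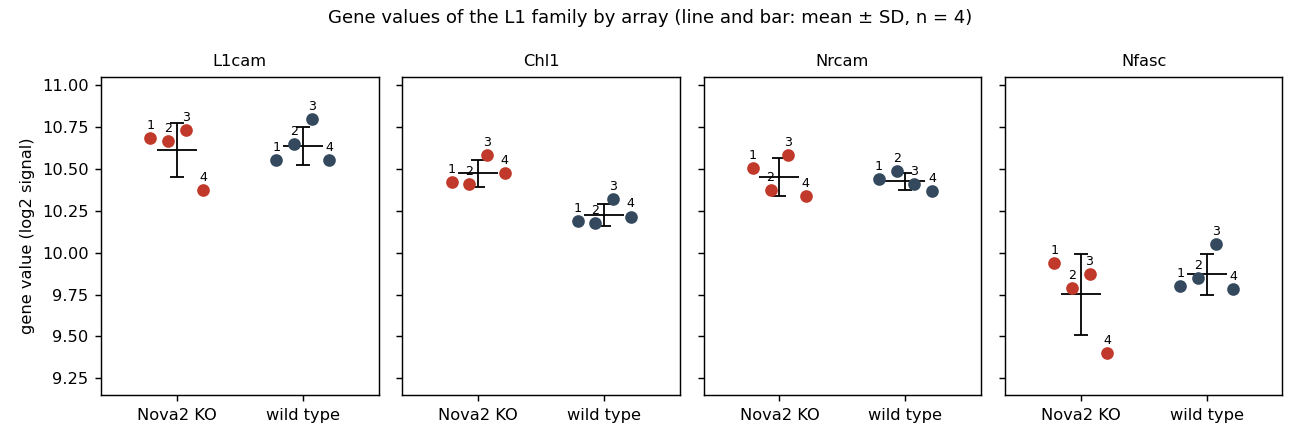
Gene value (log2) of each L1 family member on every array, with Nova2 KO left of wild type, 1 point per mouse and bars for the mean and SD (n = 4 each). The groups are apart only for Chl1, at 10.47 ± 0.079 log2 in Nova2 KO and 10.22 ± 0.065 log2 in wild type.

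Markers of myelinating oligodendrocytes, the cells that express glial Nfasc, differed between the groups. Of 7 listed markers 6 were measured, all 6 lay below 0 with a median of -0.54 log2, and Mog, which encodes a myelin surface protein, fell (-0.77 log2, SE 0.13, limma adjusted p = 0.0301). The 4 Nova2 KO values lay below the 4 wild type values for 4 of the 6, against 2.5% of all genes. The summed level of the list was 11.61 to 11.94 log2 in Nova2 KO and 12.12 to 12.38 log2 in wild type, without overlap. Precursors of oligodendrocytes had 5 of 6 markers below 0, with a median of -0.10 log2 and a summed level of 11.51 to 11.73 log2 in Nova2 KO against 11.69 to 11.86 log2 in wild type. The part of either in the Nfasc values was not tested.

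Of the 37 kept probe sets of Chl1, whose median is its gene value, 36 lay above 0 in signal, with a median of 0.23 log2. Over all kept probe sets, named or not, the median was 0.0061 log2 and 51.1% lay above 0. In 11 of the 37 all Nova2 KO values lay above all wild type values, against 3.05% of all kept probe sets. For L1cam 19 of 31 lay above 0 (median 0.020 log2), and for Nrcam 35 of 52 (median 0.039 log2). For Nfasc 13 of 40 lay above 0 (median -0.054 log2). Probe sets of a gene share its transcripts and are not replicates, so these counts restate the gene value differences.

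Exon usage was read from the index, the log2 signal less the gene value on the same array. A higher index means more signal from a stretch of transcript for the same signal from its gene. Of the 160 kept members 2 passed the threshold in the index, 1 in Chl1 and 1 in Nrcam, against 26 of 195014 over the array (0.0133%). The same 2 passed in signal, where 20 of 293697 did over the array (0.00681%). They put 2 of the 4 genes among those with at least 1 such probe set, which were 0.215% of 11187 genes. By the Simes p, which combines the probe sets of a gene into 1 value, 0.161% of genes passed. Chl1 was among them (adjusted p = 0.00958 from the limma index p), while Nrcam (0.0713), L1cam (0.824) and Nfasc (0.897) were not.

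The called Chl1 probe set, 5427955, was dim in wild type and well above that in every Nova2 KO mouse. It read 9.83, 10.47, 9.71 and 9.88 log2 in Nova2 KO, against 6.65, 7.07, 6.99 and 6.64 log2 in wild type. The lowest Nova2 KO array lay more than 2 log2 above the highest wild type array. Signal rose by 3.13 log2 or 8.78-fold (SE 0.19, n = 4 each, limma adjusted p = 0.00538), with means of 9.97 ± 0.34 log2 in Nova2 KO and 6.84 ± 0.22 log2 in wild type (SD).

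Relative to the gene the picture was the same. The index of 5427955 was -0.60, 0.06, -0.87 and -0.60 log2 on the Nova2 KO arrays, against -3.53, -3.11, -3.33 and -3.57 log2 on the wild type arrays. In Nova2 KO the probe set thus lay within 1 log2 of the median of its gene on each array, and in wild type more than 3 log2 below it. The index rose by 2.89 log2 or 7.39-fold (SE 0.20, limma adjusted p = 0.00484), the second largest absolute difference among all 195014 probe sets with an index. Without both arrays numbered 4 the difference was 2.86 log2, but it no longer passed (limma adjusted p = 0.147), and in signal it also missed the threshold without wild type 1 (3.07 log2, limma adjusted p = 0.0589). The values lie on a scale with a floor near 4 log2, which compresses differences of dim probe sets. With an offset of 1 in place of the 16 that this floor implies, the signal difference was 3.32 log2.

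No other Chl1 probe set came near this size. The indices of the remaining 36 differed by -0.50 to 0.44 log2. Probe set 5357935 read 9.01, 9.41, 9.27 and 9.01 log2 in Nova2 KO, against 8.28, 8.70, 8.42 and 8.55 log2 in wild type. Its groups did not overlap, in signal (0.69 log2, SE 0.15, limma adjusted p = 0.453) or in the index (0.44 log2, SE 0.14, limma adjusted p = 0.666), and neither passed. Probe set 5100942 differed by 0.26 log2 in the index (SE 0.13), and 5213759, a dim one at 4.50 to 6.94 log2 in Nova2 KO and 5.40 to 6.77 log2 in wild type, by -0.50 log2 (SE 0.50). The brightest probe set, 4357487, read 12.10, 12.05, 12.18 and 11.91 log2 in Nova2 KO, against 11.83, 11.74, 11.91 and 11.86 log2 in wild type. It moved with the gene, with an index difference of -0.023 log2. Without 5427955 in the gene value, the Chl1 gene value difference was 0.21 log2.

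**Figure D2:**
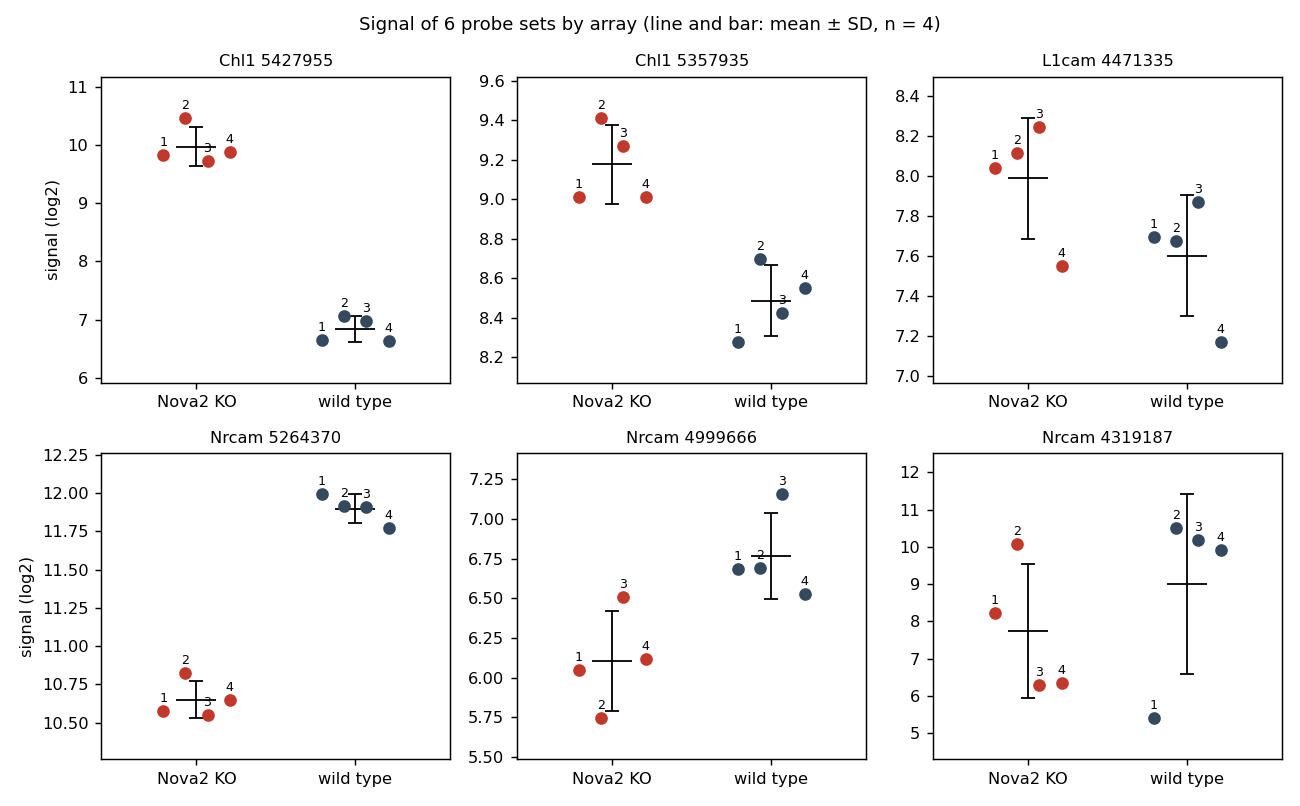
Signal (log2) of 6 L1 family probe sets on every array, with Nova2 KO left of wild type, 1 numbered point per mouse, bars for the mean and SD (n = 4 each) and a separate axis range in each panel. The groups are far apart for Chl1 5427955 (9.97 ± 0.34 log2 in Nova2 KO, 6.84 ± 0.22 log2 in wild type) and apart for Nrcam 5264370 (10.65 ± 0.12 log2 in Nova2 KO, 11.90 ± 0.094 log2 in wild type), while Nrcam 4319187 scatters over 5.12 log2.

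The called probe set of Nrcam, the neuronal member that joins Nfasc at initial segments and nodes, moved the other way. Probe set 5264370 read 10.58, 10.82, 10.55 and 10.65 log2 in Nova2 KO, against 11.99, 11.92, 11.91 and 11.77 log2 in wild type. Every Nova2 KO array lay below every wild type array, by nearly 1 log2 at the closest. Signal fell by 1.25 log2 (SE 0.12, n = 4 each, limma adjusted p = 0.0397). The probe set stayed bright in Nova2 KO, at 10.65 ± 0.12 log2, against 11.90 ± 0.094 log2 in wild type (SD).

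The index of 5264370 was 0.08, 0.45, -0.04 and 0.31 log2 on the Nova2 KO arrays, against 1.55, 1.43, 1.499 and 1.40 log2 on the wild type arrays. In wild type the probe set was thus brighter than the median of Nrcam on every array, and in Nova2 KO it was close to it. The index fell by 1.27 log2 (SE 0.12, limma adjusted p = 0.028), a ratio of 2.41 between wild type and Nova2 KO. Its size ranged from -1.35 to -1.19 log2 when single arrays were left out, but the call held only without Nova2 KO 2 (limma adjusted p = 0.0371). Without any other single array the limma adjusted p was 0.076 to 0.190, and without both arrays numbered 4 it was 0.332 (-1.33 log2). With the replicate number as a block in the model the limma adjusted p was 0.323 in the index and 0.131 in signal.

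The remaining Nrcam probe sets gave no further call. Probe set 4999666, dim in both groups, read 6.05, 5.74, 6.51 and 6.12 log2 in Nova2 KO, against 6.68, 6.69, 7.16 and 6.53 log2 in wild type. Its groups just failed to overlap, and its index differed by -0.69 log2 (SE 0.17, limma adjusted p = 0.57). Probe set 5049356 was brighter, at 11.62, 11.34, 11.87 and 11.39 log2 in Nova2 KO, against 11.33, 11.24, 11.24 and 11.14 log2 in wild type. Its index differed by 0.29 log2 (SE 0.096, limma adjusted p = 0.667). The brightest, 5364477, had overlapping groups at 11.96 to 12.24 log2 in Nova2 KO and 11.77 to 12.13 log2 in wild type.

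Nrcam probe set 4319187 varied more between mice than between the groups. It read 8.23, 10.07, 6.28 and 6.34 log2 in Nova2 KO, against 5.39, 10.51, 10.19 and 9.92 log2 in wild type. High and low arrays occurred in both groups, and the span of 5.12 log2 was exceeded by 0.0327% of kept probe sets. Its index difference of -1.29 log2 (SE 1.26, limma adjusted p = 0.876) lay within that scatter. Without wild type 1 it was -2.50 log2 and without both arrays numbered 4 it was -0.54 log2. It passed only with diffSplice of limma (adjusted p = 0.0101), which pools the spread over the probe sets of a gene. By diffSplice 506 probe sets passed over the array, against 26 by the index as reported.

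L1cam was the most even of the 4 genes. All 31 of its probe sets had index differences between -0.049 and 0.41 log2, with a median absolute difference of 0.047 log2. The corresponding medians were 0.086 log2 for Chl1, 0.086 log2 for Nrcam and 0.10 log2 for Nfasc, and 0.115 log2 over all probe sets with an index. The gene-wise median was 0.066 log2 at the 10th percentile of genes, above the L1cam value, and 0.198 log2 at the 90th. The dimmest kept probe set of L1cam was at 7.80 log2, against 6.02 log2 for Chl1, 6.35 log2 for Nrcam and 6.03 log2 for Nfasc. The part of brightness in these medians was not tested.

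Probe set 4471335 had the lowest p within L1cam. It read 8.04, 8.12, 8.25 and 7.55 log2 in Nova2 KO, against 7.70, 7.68, 7.87 and 7.17 log2 in wild type. In signal the groups overlapped, and array 4 was the lowest of each. In the index they did not, at -2.82 to -2.48 log2 in Nova2 KO and -3.38 to -2.86 log2 in wild type, and the difference was 0.41 log2 (SE 0.14, unadjusted p = 0.015, limma adjusted p = 0.667). The indices of 4731972 (0.27 log2, SE 0.10) and 4376705 (0.19 log2, SE 0.087) did not pass either. The brightest probe set, 4966951, had overlapping groups at 11.86 to 12.37 log2 in Nova2 KO and 12.12 to 12.48 log2 in wild type.

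Nfasc showed no probe set whose groups were apart, in signal or in the index. Probe set 4436418 had the lowest index p, at 10.91, 11.01, 11.41 and 10.44 log2 in Nova2 KO, against 10.64, 10.84, 10.78 and 10.43 log2 in wild type, with an index difference of 0.39 log2 (SE 0.14, unadjusted p = 0.0222, limma adjusted p = 0.695). The largest index differences were those of 5585150 (0.69 log2, SE 0.31) and 5351626 (0.50 log2, SE 0.25), and neither passed. Probe set 5585150 is the one near the filter, at 5.91 to 7.15 log2 in Nova2 KO and 4.90 to 6.25 log2 in wild type. The brightest, 5383820, read 11.38 to 11.83 log2 in Nova2 KO and 11.66 to 12.001 log2 in wild type.

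**Figure D3:**
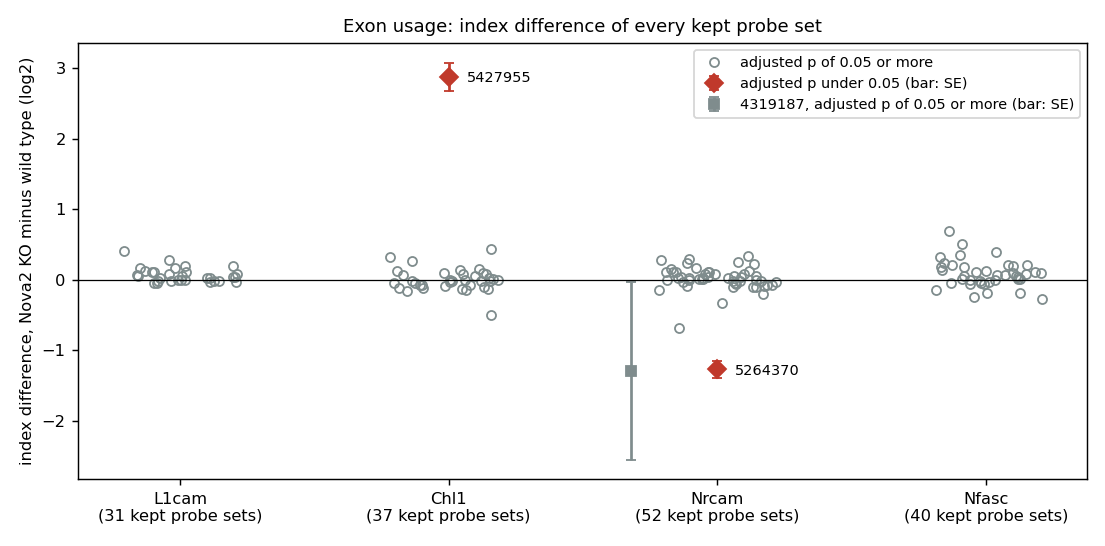
Index difference (log2, Nova2 KO minus wild type) of every kept probe set of the 4 genes, with called probe sets as diamonds and Nrcam 4319187 as a square, each with its SE. Chl1 5427955 lies at 2.89 log2 and Nrcam 5264370 at -1.27 log2, and 154 of the 160 lie within 0.5 log2 of 0.

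The members were also counted as a whole, the 2 called ones included. Index differences were under 0.5 log2 in size for 154 of 160 members and for 97.3% of all probe sets. An unadjusted p under 0.05 in the index was found for 8 of 160, against 6.76% of all. The groups were apart in the index for 5 members with Nova2 KO above wild type and for 3 with Nova2 KO below it, against 2.07% and 2.05% of all probe sets. In signal, 13 of the 160 members had Nova2 KO above wild type, against 3.05% of all kept probe sets, and 11 of the 13 were in Chl1. Another 2, both in Nrcam, had it below, against 2.04% of all.

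The genes whose gene values ran most like a member's over the 8 arrays differed for each member. For each, the 3 with the highest r were picked from all genes, so a high r is built into the choice. For Chl1 they were AA414768 (Pearson r = 0.975), Ube2l3 (0.973) and 4931406C07Rik (0.969). Like Chl1 these 3 were higher in Nova2 KO, by 0.38, 0.30 and 0.27 log2. For Nrcam they were Iglon5 (0.976), Slc50a1 (0.975) and Npas2 (0.966). L1cam ran closest to Spns2 (0.976), Myo1c (0.970) and Atp9b (0.967), and Nfasc to Odz2 (0.975), Ubr4 (0.975) and Slc4a8 (0.973). The 8 points of each r share their arrays, whose medians correlated with the gene value at r = 0.779 for L1cam, 0.639 for Nfasc, 0.455 for Nrcam and 0.024 for Chl1.

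Proteins that bind or process the L1 family were listed by role, 56 genes in all, and 49 were measured. In gene value 1 of the 49, Dcx, rose and none fell by limma, against 0.208% called of all genes. An unadjusted p under 0.05 was found for 5, against 11.6% of all genes. The groups were apart for 1 gene with Nova2 KO above wild type and for 3 with it below, against 5.06% and 2.5% of all genes. Values lay above 0 for 21 and below 0 for 28, with a median of -0.028 log2 against 0.022 log2 over all genes. In exon usage 3 of the 48 with an index had a called probe set, against 0.215% of all genes with an index. The partner lists were chosen with earlier results of these data known, so the place of these calls is not independent evidence. All 3 lay in the group that anchors the family to the membrane skeleton.

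That group holds ankyrins, which bind the tails of L1 family members, and spectrins, to which ankyrins attach. Of 7 listed genes 5 were measured, none passed in gene value, and 3 had a called probe set. For Ank3, which encodes ankyrin-G of the initial segment, probe set 5060679 read 9.96, 9.80, 9.54 and 9.22 log2 in Nova2 KO, against 7.05, 7.13, 6.93 and 6.71 log2 in wild type. Its index rose by 2.75 log2 (SE 0.14, limma adjusted p = 0.00361), a change of the same direction and nearly the same size as that of Chl1 5427955. For Ank2, which encodes ankyrin-B, probe set 5483488 read 11.45, 11.36, 11.49 and 11.37 log2 in Nova2 KO, against 9.56, 9.84, 9.73 and 9.83 log2 in wild type. Its index rose by 1.68 log2 (SE 0.10, limma adjusted p = 0.00484).

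Sptan1, which encodes alpha-II spectrin, went down in its probe set 5084491. It read 10.26, 10.44, 10.07 and 10.13 log2 in Nova2 KO, against 11.42, 11.60, 11.52 and 11.55 log2 in wild type. The groups were nearly 1 log2 apart, and the index fell by 1.33 log2 (SE 0.090, limma adjusted p = 0.00484). Without both arrays numbered 4 the calls for Ank2 and Sptan1 were lost (limma adjusted p = 0.147 for each), while that for Ank3 was not. With the replicate number as a block they were also lost (limma adjusted p = 0.0585 for Ank2, 0.14 for Sptan1), and that for Ank3 held. Sptbn4, the beta spectrin of the initial segment, differed by -0.24 log2 in gene value (SE 0.11, limma adjusted p = 0.427).

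**Figure D4:**
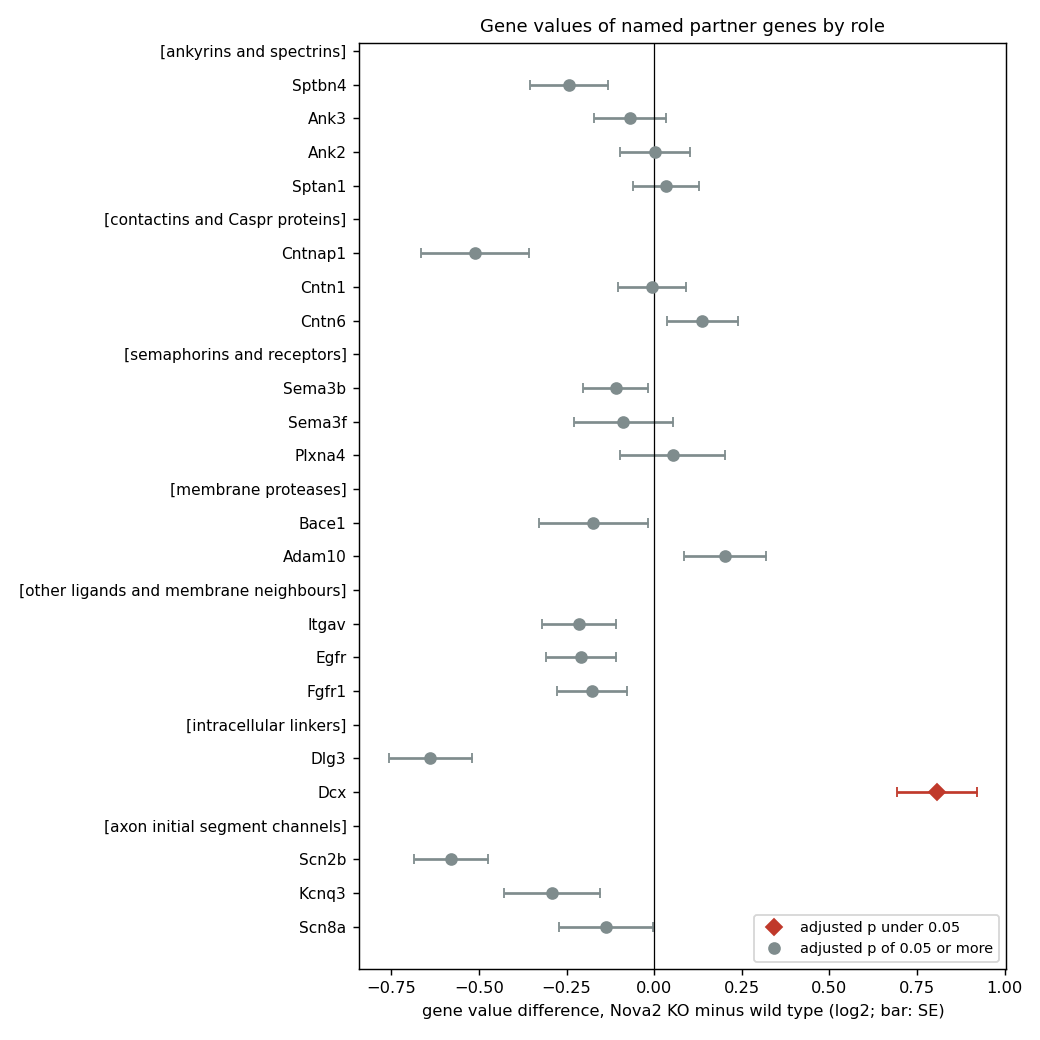
Gene value differences (log2, Nova2 KO minus wild type, with SE, n = 4 each) of the named partners of the L1 family, by role. Dcx lies at 0.81 log2, and Dlg3 (-0.64 log2), Scn2b (-0.58 log2) and Cntnap1 (-0.51 log2) lie farthest below 0.

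Among proteins that bind the tails from inside, 13 of 13 listed genes were measured, with 7 above and 6 below 0. Dcx, or doublecortin, a microtubule-binding protein of young neurons that binds the Nfasc tail, had gene values of 10.72, 10.71, 10.79 and 10.56 log2 in Nova2 KO, against 9.85, 9.98, 10.09 and 9.63 log2 in wild type. It rose by 0.81 log2 or 1.75-fold (SE 0.11, limma adjusted p = 0.0133). The call was lost without Nova2 KO 1 (0.80 log2, limma adjusted p = 0.0563), Nova2 KO 2 (0.79 log2, 0.085), Nova2 KO 3 (0.78 log2, 0.0744) or wild type 1 (0.79 log2, 0.0777). Dlg3, which encodes the scaffold SAP102 that binds Nrcam, read 9.35, 9.43, 9.28 and 9.09 log2 in Nova2 KO, against 9.89, 10.05, 10.10 and 9.68 log2 in wild type. The groups were apart, but the difference of -0.64 log2 (SE 0.12, limma adjusted p = 0.0584) missed the threshold. It passed in 5 of 17 other settings, among them median centring (limma adjusted p = 0.0218), quantile normalization (0.0198), the array median as a covariate (0.0033) and the data without wild type 4 (-0.72 log2, 0.0286). The leading Dlg3 probe set, 5485223, differed by 1.04 log2 in the index (SE 0.19, limma adjusted p = 0.392). In signal its groups overlapped, at means of 7.25 log2 in Nova2 KO and 6.85 log2 in wild type. The index also moves with the gene value, which was lower in Nova2 KO. In the index 5485223 passed only with diffSplice (adjusted p = 0.00042).

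Channels of the initial segment, which gather there with Nrcam and Nfasc, were measured for 5 of 7 listed genes. All 5 lay below 0, with a median of -0.22 log2, and none passed by limma, while 1 had an unadjusted p under 0.05. That was Scn2b, the beta-2 subunit of sodium channels, at 9.25, 9.57, 9.32 and 9.17 log2 in Nova2 KO, against 9.85, 9.89, 9.94 and 9.95 log2 in wild type. Its groups were apart, and its difference was -0.58 log2 (SE 0.11, limma adjusted p = 0.0529). It passed in 6 of 17 other settings, among them the filter at the 50th percentile (limma adjusted p = 0.0442), the mean as gene value (0.034), quantile normalization (0.0402), the array covariate (0.0172) and the data without Nova2 KO 2 (-0.66 log2, 0.0391). Kcnq3, a potassium channel subunit, differed by -0.29 log2 (SE 0.14, limma adjusted p = 0.437), and Scn8a, the sodium channel of mature initial segments, by -0.14 log2 (SE 0.13). The leading Scn8a probe set, 4460710, differed by 0.87 log2 in the index (SE 0.11, limma adjusted p = 0.134).

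Contactins and Caspr proteins, adhesion partners on the same or the facing membrane, were all measured, with 4 of 8 above and 4 below 0. Cntnap1, the paranodal Caspr that forms a complex with contactin-1 opposite glial Nfasc, had every Nova2 KO array below every wild type array, at a difference of -0.51 log2 (SE 0.16, limma adjusted p = 0.263). With the array median as a covariate it passed (limma adjusted p = 0.0428). The oligodendrocyte markers given above lay in the same direction, and their part in this value was not tested. Cntn6 differed by 0.14 log2 (SE 0.10). In Cntn1, which encodes contactin-1, the leading probe set 5357738 differed by 0.80 log2 in the index (SE 0.18, limma adjusted p = 0.519). It passed only with diffSplice (adjusted p = 4.97e-06).

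Semaphorins and their receptors, with which L1cam, Chl1 and Nrcam form complexes in growth cones, had 3 of 8 measured genes above and 5 below 0. The median was -0.038 log2, no gene value had an unadjusted p under 0.05, and Sema3b (-0.11 log2, SE 0.093) and Sema3f (-0.088 log2, SE 0.14) were small beside their error. Plxna4, a plexin that transmits semaphorin signals, differed by 0.052 log2 (SE 0.15). Its leading probe set, 5315560, differed by -0.32 log2 in the index (SE 0.084, limma adjusted p = 0.599). Of the proteases that shed the outer parts of L1 family members, Adam10 differed by 0.20 log2 (SE 0.12) and Bace1, which cleaves Chl1, by -0.17 log2 (SE 0.16). The leading Adam10 probe set, 4659902, differed by -0.33 log2 in the index (SE 0.13, limma adjusted p = 0.716). Of 8 measured genes for other ligands and membrane neighbours 3 lay above and 5 below 0 in gene value, with a median of -0.11 log2 and no unadjusted p under 0.05. Among them the integrin gene Itgav differed by -0.21 log2 (SE 0.11), and the receptor kinase genes Egfr and Fgfr1 by -0.21 log2 (SE 0.10) and -0.18 log2 (SE 0.099). The leading Fgfr1 probe set, 5405250, differed by 0.67 log2 in the index (SE 0.16, limma adjusted p = 0.551).

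The 2 member calls were also followed over the other ways of processing the data. The index difference of Chl1 5427955 lay between 2.70 and 3.07 log2 in 18 of them and passed in 17, and that of Nrcam 5264370 lay between -1.35 and -1.19 log2 and passed in 8. Size and direction thus held for both, while the call for Nrcam depended on the setting.

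**Figure D5:**
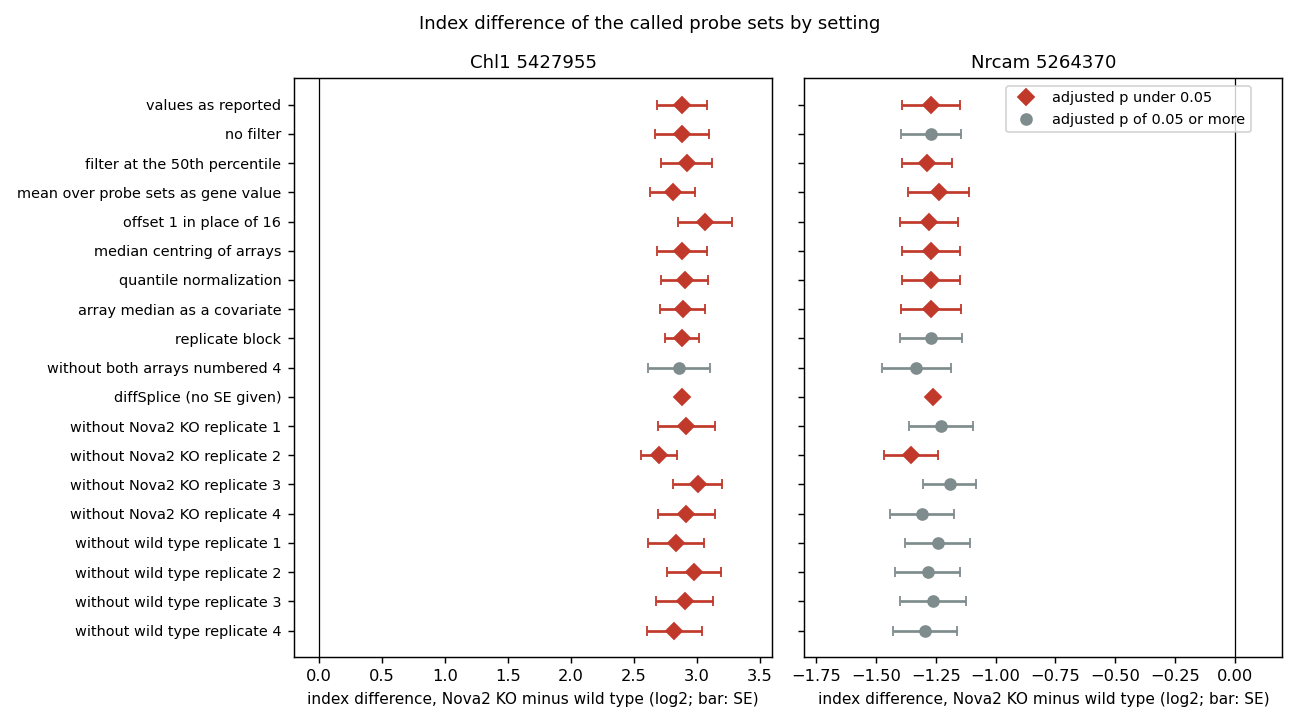
Index difference (log2, Nova2 KO minus wild type) of Chl1 5427955 and Nrcam 5264370 as reported and in 18 other settings, with red diamonds where the limma adjusted p was under 0.05, grey circles elsewhere and bars for the SE (none for diffSplice). Chl1 passes in 17 of the 18 and Nrcam in 8.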

How the data were processed

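Cortical RNA was isolated with Trizol and labelled by Affymetrix's whole-transcript sense assay, per the labels' protocols. The deposited values are on a log2 scale, 1 per array for each of 391597 probe sets, made by the authors with PLIER, a probe summary, per the submitters' processing notes, its version not given. Normalization, genome build and probe set choice are not given in the sources used here, and the values were left unchanged.

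Probe sets were named from the platform annotation (228454 with 1 gene, 3443 with several, 159700 unnamed here), with older symbols updated. A filter at the 25th percentile (5.86 log2) kept 293697. Gene values needed 3 kept probe sets, the index 5. Each measure was tested as Nova2 KO minus wild type with lmFit and eBayes of limma 3.58.1 (R 4.3.3, data.table version 1.17.8), two-sided, with Benjamini-Hochberg adjustment at 0.05 over all features tested. Plots used Python 3.11.15 and matplotlib 3.10.9. Code was tested on simulated data.

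The family, the partner and marker lists and the tests were chosen with earlier results of these data known. Named are called probe sets and, per member, the 3 with the lowest index p, the 2 with the largest index difference and the brightest. Partners are named when called, and per role group the 2 with the lowest gene value p and the 1 with the lowest index p. Other settings were the filter, the gene value as a mean, the offset, scaling, an array covariate, a replicate block, diffSplice and arrays left out. Marker lists of 12 cell types and regions were measured. Exon positions of probe sets were not analysed here, so no coordinates or sequences are given.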

Additional observations from a re-analysis of the deposited data

Results flagged for a closer look

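Each group of 4 arrays was searched for an array whose gap to its nearest neighbour took up most of the group's range, by Dixon's ratio at its 95% critical value. Chance marks about 1 group in 20, and 11 of 120 groups were marked here, all of them wild type. For Nrcam 4319187, wild type 1 was low, at 5.39 log2 in signal against 9.92 log2 for the nearest array (ratio 0.884) and at -5.05 against -0.45 log2 in the index (ratio 0.907). Wild type 4 was low for Nrcam 5364477 (11.77 against 12.10 log2, ratio 0.921), Sema3f (7.60 against 8.05 log2, ratio 0.942), Bace1 (9.60 against 10.04 log2, ratio 0.851) and Adam10 (9.53 against 9.87 log2, ratio 0.891), and it is the array with the lowest median. Wild type 3 was high for L1cam 4376705 (9.996 against 9.65 log2, ratio 0.836), for Nfasc 5383820 (12.001 against 11.70 log2, ratio 0.875) and for the index of Nrcam 4999666 (-3.25 against -3.76 log2, ratio 0.863). Wild type 1 was high for the index of L1cam 4966951 (1.93 against 1.56 log2, ratio 0.831), and wild type 2 for the gene value of Ank2 (11.13 against 10.94 log2, ratio 0.893). Neither called probe set of the family was marked.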

How the results depend on the processing

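The number of L1 family gene values past the threshold was 0 in every setting. The 2 member calls in exon usage became 1 without a filter, 1 with the replicate block and 0 without both arrays numbered 4, and 1 to 2 when single arrays were left out (2 only without Nova2 KO 2). The 2 in signal became 1 without a filter, 1 with offset 1, 1 with the block and 0 without both arrays numbered 4, and 0 (without wild type 1) to 1 without single arrays. The 1 partner called in gene value became 2 with the filter at the 50th percentile, 2 with median centring, 3 with quantile normalization, 4 with the array median as a covariate, 4 with the block (Dcx, Cntnap1 at adjusted p = 0.0376, Dlg3 at 0.0135 and Scn2b at 0.033) and 0 to 2 without single arrays. With the mean as gene value it was Scn2b in place of Dcx. The 3 partners called in exon usage became 1 with the block, 1 without both arrays numbered 4 and 8 with diffSplice. Calls over the whole array changed as well. In the index 26 probe sets became 15 without a filter, 4 with the block, 2 without both arrays numbered 4 and 506 with diffSplice. In signal 20 became 6 without a filter, 6 with offset 1, 7 with the block and 2 without both arrays numbered 4. In gene value 25 genes became 23 with the 50th percentile filter, 13 with median centring and 24 with quantile normalization. They became 54 with the array covariate and 80 with the block. The cause was not tested.

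The replicate numbers were not taken as pairs in the values as reported. Arrays of the same number correlated at 0.082 to 0.52 in their deviations from the group means, and 3 of 4 numbers matched their own best. Differences near 0 turned sign. With the mean as gene value, L1cam was at 0.042, Nrcam at -0.0083, Ank3 at 0.016, Cntn1 at 0.048 and the Nfasc 5383820 index at -0.051 log2 (-0.052 with diffSplice). Quantile normalization gave Nrcam -0.0034 and Ank2 -0.031, and no filter gave Ank2 -0.0018 log2. The 50th percentile gave the Chl1 4357487 index 0.010 log2. Without both arrays numbered 4, L1cam was at 0.029 and the indices of Chl1 4357487 and Nrcam 5364477 at 0.038 and -0.027 log2. Without probe set 5264370, chosen after seeing the data, Nrcam was at -0.0053 log2.

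Leaving out single arrays gave gene values of -0.064 to 0.056 (L1cam), -0.022 to 0.061 (Nrcam), -0.029 to 0.052 (Ank2), -0.065 to 0.033 (Cntn1), -0.20 to 0.026 (Sema3f) and -0.053 to 0.17 log2 (Plxna4). It gave signals of -0.13 to 0.034 (L1cam 4966951), -0.60 to 0.22 (Chl1 5213759), -0.14 to 0.012 (Nfasc 5383820) and -0.027 to 0.10 log2 (Nrcam 5364477), and indices of -0.094 to 0.052 (L1cam 4966951), -0.053 to 0.028 (Chl1 4357487) and -0.031 to 0.076 log2 (Nrcam 5364477). Of the values for single genes and probe sets, 1102 kept side and direction, 34 lost a call, 20 gained one and 36 turned sign.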
